A study of Drosophila melanogaster with 3 samples.

Results

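Peaks of the CG15011 protein at 8 regulators of heart and mesoderm development were described: tin, bap, bin, Mef2, pnr, ush, twi and htl, 8 of the 18164 genes annotated on the major chromosome arms. They were chosen by symbol, from their developmental roles and from peaks already seen in these data, the promoter peak of tin and the intronic peak of ush among them, so their counts are a description with no test. The data are chromatin immunoprecipitation followed by sequencing from whole Drosophila melanogaster embryos of pooled male and female sex, aged 0 to 24 hours, of the strain CG15011-GFP, a transgenic line with GFP fused to the C-terminal end of CG15011. The 3 biological replicates form 1 group and share 1 donor line, and nothing in the labels says that the embryos were sorted by cell type, so a peak cannot be placed in heart, mesoderm or any other tissue. Each sample also carries a label that calls it an input control, but the deposited notes set each replicate's alignment against a different, control one, and the samples are treated here as immunoprecipitated. The optimal set holds 3237 peaks, those of the pooled replicates that passed the authors' threshold on repeatability, and the pooled list and each replicate list hold 30000. Signal is the authors' value per peak and ranks peaks within 1 list, with rank 1 the strongest. Read depth is unknown, because the lists give no read counts.

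The 8 genes act in successive steps of mesoderm development. Twist, a basic helix-loop-helix factor, sets the mesodermal fate, and Heartless is the fibroblast growth factor receptor that mesoderm cells use to spread under the ectoderm. Tinman and Bagpipe are NK homeodomain factors of the heart and visceral mesoderm, Biniou is a forkhead factor of the visceral mesoderm, and Mef2 is the MADS-box factor of muscle differentiation. Pannier is a GATA factor of the heart and dorsal ectoderm, and U-shaped, the product of ush, is the Friend-of-GATA cofactor that binds Pannier and limits its activity.

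The windows within 100 bp of 6 optimal summits are given first, because the results turn on these peaks of ush, tin, htl and bin. They are from the plus strand of RefSeq Release 6 (dm6 coordinates), and capitals mark any match to the motifs described further on, on either strand. The first is the strongest peak in ush, the next is the peak beside it at the promoter of cbt, and the third holds a long run of CT repeats in another ush intron. The remaining windows are the peaks at the promoters of tin and htl and just upstream of bin.
ush intronic peak, chr2L:480954-481154: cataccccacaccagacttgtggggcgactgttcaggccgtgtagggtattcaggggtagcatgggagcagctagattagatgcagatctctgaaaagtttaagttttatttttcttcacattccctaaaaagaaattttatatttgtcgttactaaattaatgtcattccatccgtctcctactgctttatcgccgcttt
ush intronic peak at the cbt promoter, chr2L:479965-480165: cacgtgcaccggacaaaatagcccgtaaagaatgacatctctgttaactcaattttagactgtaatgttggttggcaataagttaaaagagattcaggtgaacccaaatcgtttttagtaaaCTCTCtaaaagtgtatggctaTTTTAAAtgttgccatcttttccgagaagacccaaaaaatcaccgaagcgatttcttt
ush intronic peak with CT repeats, chr2L:510536-510736: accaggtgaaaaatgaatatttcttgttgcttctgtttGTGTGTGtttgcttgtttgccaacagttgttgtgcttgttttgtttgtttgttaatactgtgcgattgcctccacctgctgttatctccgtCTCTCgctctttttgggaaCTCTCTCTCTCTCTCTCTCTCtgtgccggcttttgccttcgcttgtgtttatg
tin promoter peak, chr3R:21378645-21378845: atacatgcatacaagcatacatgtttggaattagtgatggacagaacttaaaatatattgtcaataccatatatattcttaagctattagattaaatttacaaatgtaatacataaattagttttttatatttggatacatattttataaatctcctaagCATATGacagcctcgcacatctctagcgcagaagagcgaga
htl promoter peak, chr3R:18049605-18049805: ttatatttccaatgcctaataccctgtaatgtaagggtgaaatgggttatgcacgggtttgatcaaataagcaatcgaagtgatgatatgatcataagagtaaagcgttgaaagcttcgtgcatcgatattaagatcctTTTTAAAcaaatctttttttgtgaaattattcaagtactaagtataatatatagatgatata
bin upstream peak, chr3L:6989227-6989427: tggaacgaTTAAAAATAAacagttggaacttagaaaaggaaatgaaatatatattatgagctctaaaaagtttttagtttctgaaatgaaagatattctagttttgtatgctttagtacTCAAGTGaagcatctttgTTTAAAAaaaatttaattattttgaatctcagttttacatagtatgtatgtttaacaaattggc

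Of the 8 genes, 5 had an optimal peak within 10 kb of the gene body, and these held 20 peaks in all: 11 for ush, 5 for Mef2, 2 for bin and 1 each for tin and htl. For bap, pnr and twi there was none. In the annotation, 46.2% of the 13945 protein-coding genes had an optimal summit within 10 kb. An optimal promoter peak, with its summit 500 bp or less from a transcription start site (TSS) of the gene itself, was found for 2 of the 8 genes, tin and htl, against 10.8% of protein-coding genes. A summit lay in an intron for 3, ush, Mef2 and htl, against 7.75%. The 8 genes had a median length of 11.7 kb against 2.17 kb for protein-coding genes, but went from 1.57 kb for bap to 64.3 kb for ush. The part of length in the intron and 10 kb counts was not tested. By place, 11 of the 20 summits were intronic, 8 lay upstream of the gene and 1 lay in a 5′ UTR exon of Mef2. For 10 of the 20, the nearest TSS belonged to another gene only. Of the 11 intronic summits, 7 lay in ush. Shares of all optimal peaks by place or by nearest TSS were not computed, so these counts are not set against the whole set. The signals of the 20 peaks went from 162.2 to 2728.4 with a median of 336.3, beside a median of 247.5 over the whole optimal set.

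**Figure D1:**
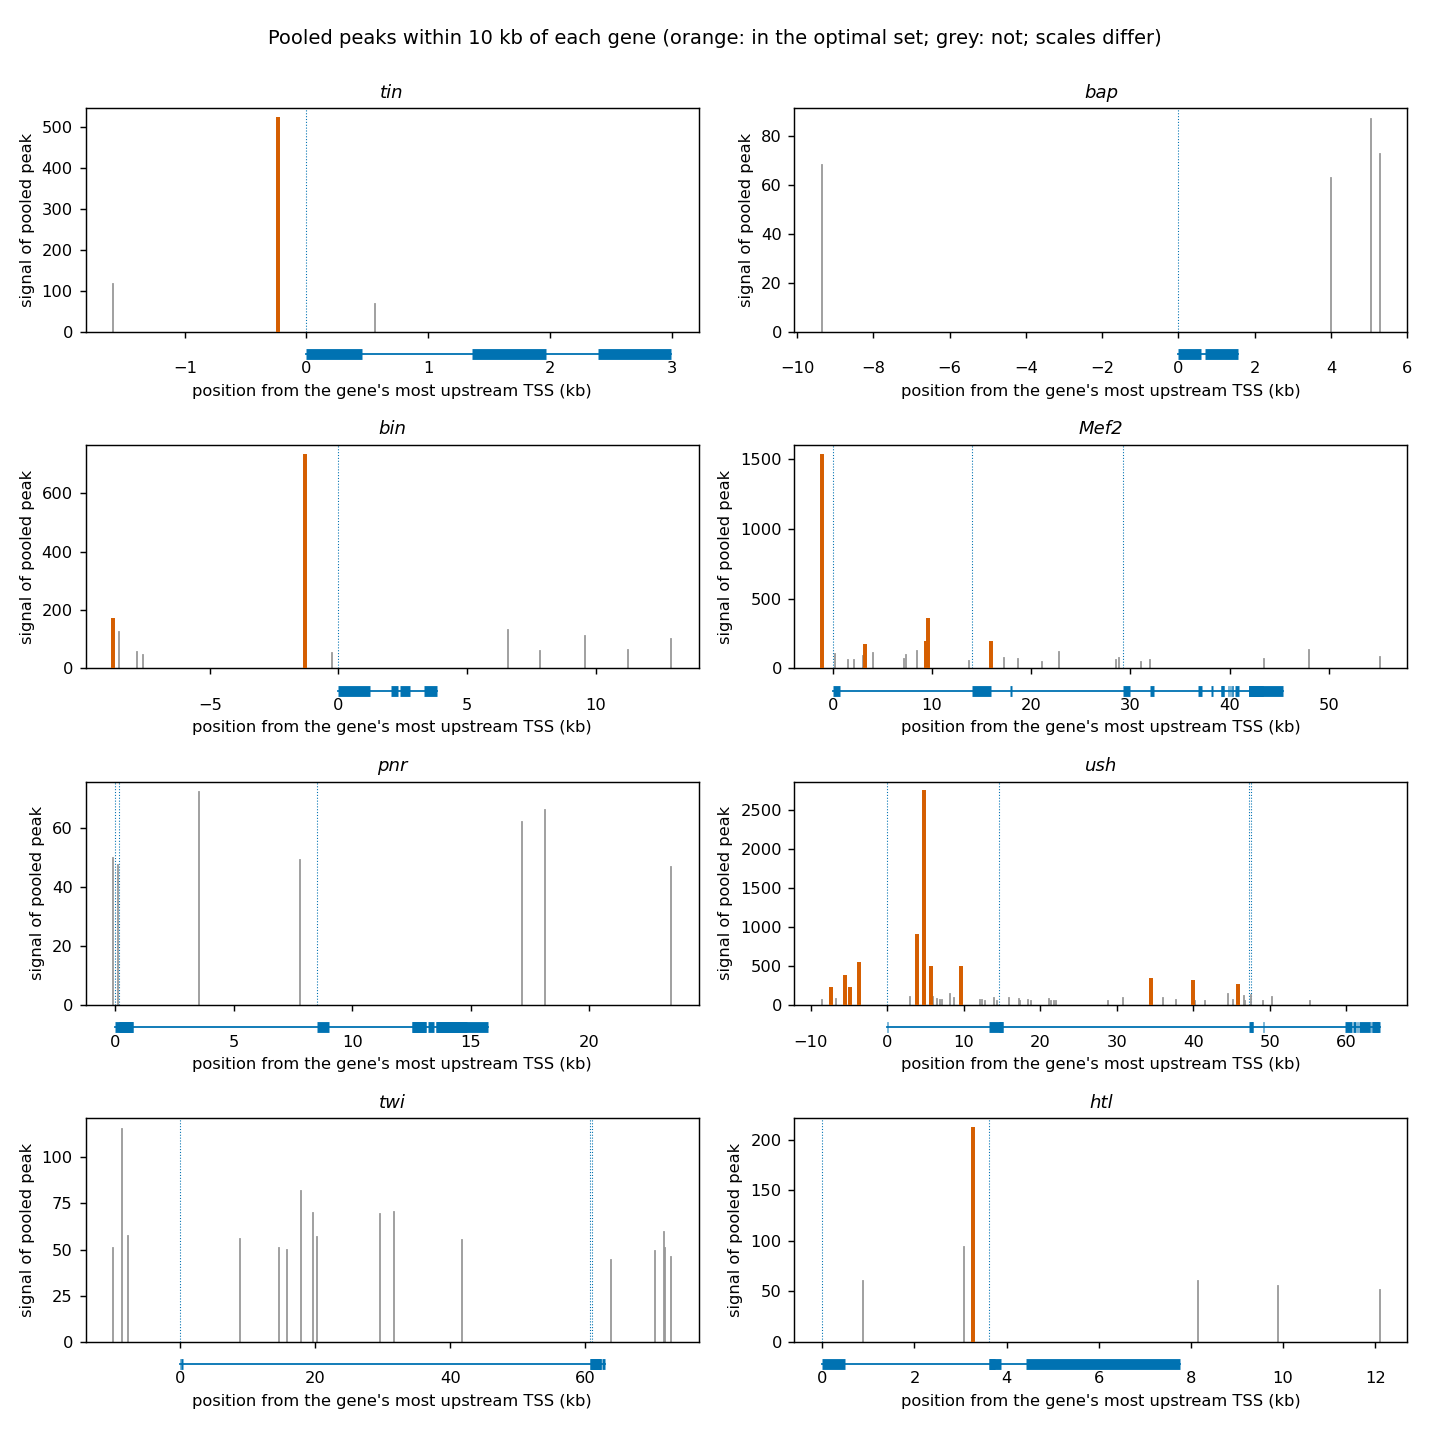
Signal of each pooled peak (vertical lines, orange for optimal peaks and grey for the rest) against the position of its summit from the most upstream TSS of each gene, in kb; exons are blue boxes and TSSs dotted lines, and both axes differ between panels. The tallest lines are 4834 bp into ush (signal 2728.4) and upstream of Mef2 (1524.4), while bap, pnr and twi have grey lines only.

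The strongest peak of the group lay inside ush (FBgn0003963, chr2L:476220-540560, plus strand), at chr2L:480885-481282 with its summit at 481054. It had a signal of 2728.4 in the pooled list, 85.2% of the strongest peak there, and rank 4. In the lists of the separate replicates the overlapping peak had a signal of 705.9 in replicate 1, 1286.5 in replicate 2 and 694 in replicate 3, with ranks 7, 5 and 3, a mean rank of 5 ± 2 (SD, n = 3). All lists thus place it among their strongest peaks. The replicate summits lay at 481049, 481054 and 481084.

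The TSS nearest to this summit was that of cbt (FBgn0043364, chr2L:476446-479688, minus strand), the gene of the zinc-finger transcription factor Cabut. The distance was 1366 bp in the pooled list and 1361, 1366 and 1396 bp in replicates 1, 2 and 3, always upstream of cbt. The TSS of ush-RD and ush-RE was the next nearest, 4834 bp away, with the summit downstream of it. The TSSs of MED15 and CG4297 followed at 8041 and 8854 bp. The whole of cbt lies in the same ush intron as the peak (chr2L:476332-489516, 13185 bp) on the opposite strand. The peak is therefore intronic for ush-RD and ush-RE, and lies upstream of ush-RB, ush-RA and ush-RC. Position alone does not assign it to either gene.

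That intron held 3 further optimal peaks. The second strongest peak of ush (chr2L:479928-480217, signal 879.4, rank 149) had its summit 377 bp upstream of the cbt TSS, and ranked 192, 122 and 180 in replicates 1, 2 and 3. It is a cbt promoter peak by the 500 bp rule as well as an intronic ush peak. The peak at chr2L:481908-482023 (471.4, rank 541) lay 2272 bp upstream of cbt and varied most between replicates, with ranks of 2000, 471 and 324. The last, at chr2L:485773-485955 (467.7, rank 548), lay 4944 bp upstream of the TSS that ush-RB shares with lncRNA:CR46258, and ranked 382, 559 and 1032. A second ush intron (chr2L:491359-523465) held 3 weaker peaks, with signals of 325.7, 296.4 and 242.5 and pooled ranks of 1040, 1208 and 1670. Each of these was among the 3237 strongest peaks of every replicate.

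**Figure D2:**
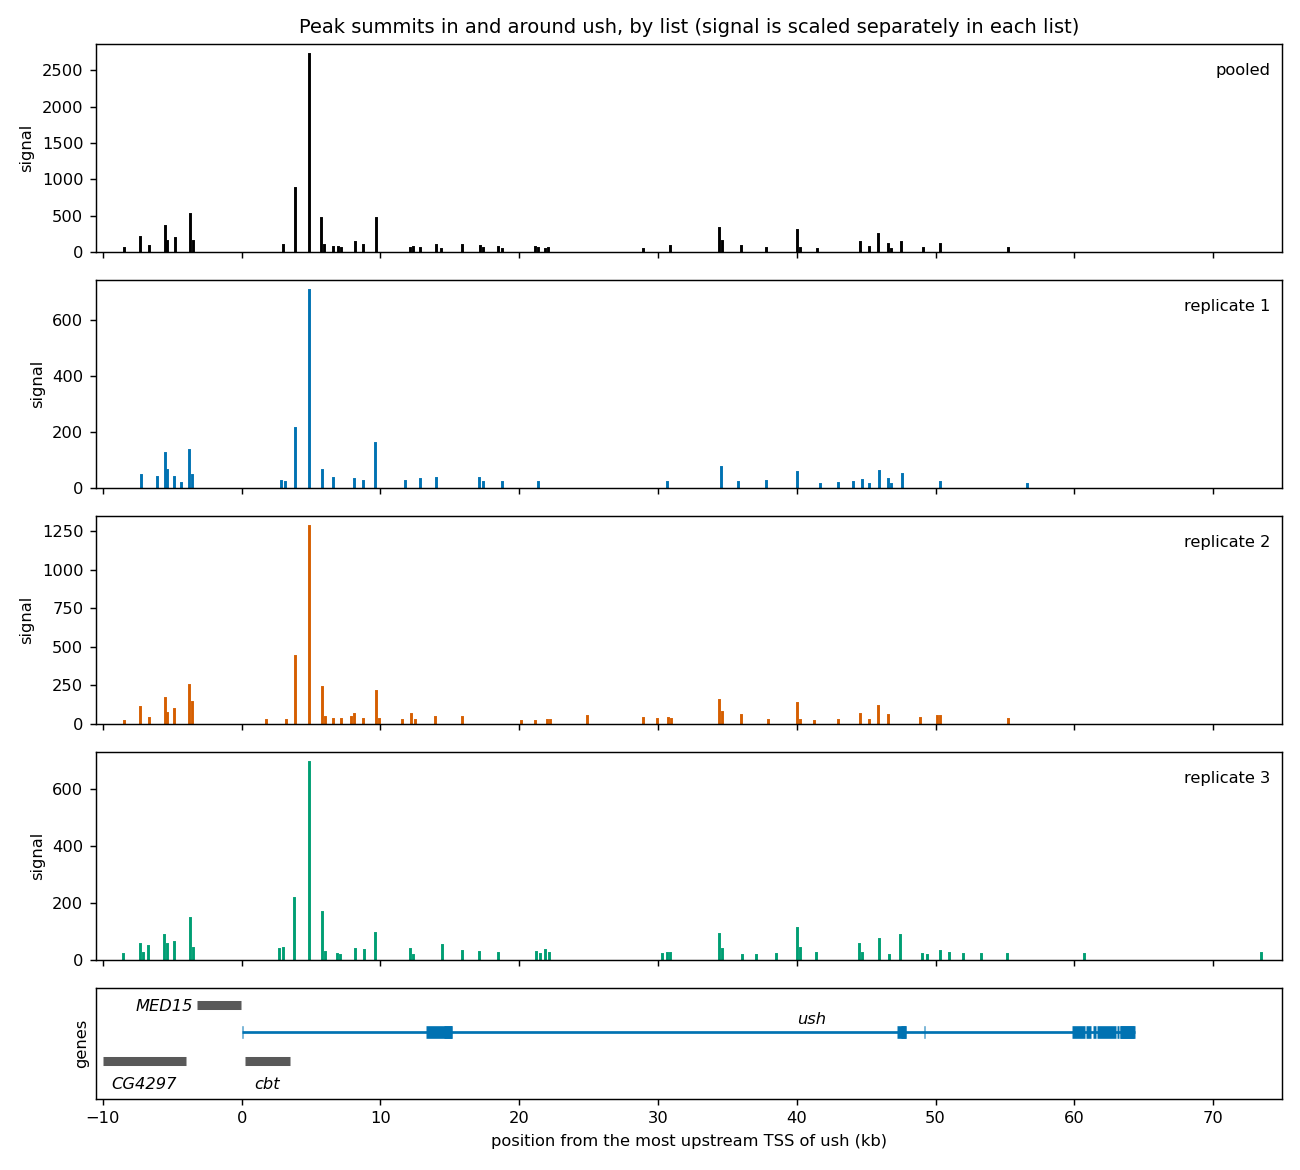
Signal of every peak within 10 kb of ush in the pooled list and in each replicate, against its summit position in kb from the most upstream TSS of ush, with the genes drawn to scale below. In all 4 panels the tallest line is the same intronic peak, just beyond the start of cbt. Its summit lies 4834 bp into ush in the pooled list and 4829, 4834 and 4864 bp in replicates 1, 2 and 3.

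None of the 4 annotated TSSs of ush had an optimal summit within 500 bp. The closest case was the pair of TSSs of ush-RA and ush-RC, where a pooled peak of signal 131.2 lay 29 bp downstream of the ush-RC TSS at rank 4205, outside the optimal set. Replicates 1 and 3 had a peak within 500 bp of both, at ranks 3039 and 1199, whereas in replicate 2 the nearest summit lay at -634 bp from the ush-RA TSS. At ush-RB, replicate 3 alone had a peak within 500 bp, at -180 bp with rank 2849, and the pooled summit there ranked 28729. At the most upstream ush TSS the nearest summit of any list, that of replicate 2, lay 1738 bp downstream.

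Upstream of ush, 4 optimal peaks lay in or beside CG4297, which runs away from ush and is separated from it by MED15. The strongest of these (chr2L:472388-472533, signal 528.7, rank 432) was 283 bp upstream of a CG4297 TSS and ranked 540, 410 and 428 in the replicates. Its summit lay between that TSS (472200, minus strand) and the TSS of MED15 (473013, plus strand). Another (chr2L:471161-471604, 199, rank 2289) lay 172 bp downstream of a CG4297 TSS. The other pair had signals of 364.3 and 210.9 and lay 890 and 2643 bp downstream of the CG4297 TSS nearest to them. For all 4, the nearest TSS was that of CG4297, not of ush.

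The long introns of ush give more room for peaks, so it was compared with other long genes, a comparison added after the peaks had been seen. Among 461 protein-coding genes of at least 40 kb, the median gene had 0 intronic optimal summits and 48.8% had at least 1. With 7, ush was one of 13 such genes (2.82%) that had 7 or more, and the highest number was 16. Mef2, with 3, was one of 97 (21%) that had 3 or more. The third long member, twi, had none. The intronic peak of ush was known when ush was chosen, so its place among long genes is not independent of that choice. The 7 summits of ush include those 377, 1366 and 2272 bp upstream of cbt, for which the nearest TSS was that of cbt. The summit of rank 1040 was nearest to the TSS of lncRNA:CR46259.

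**Figure D3:**
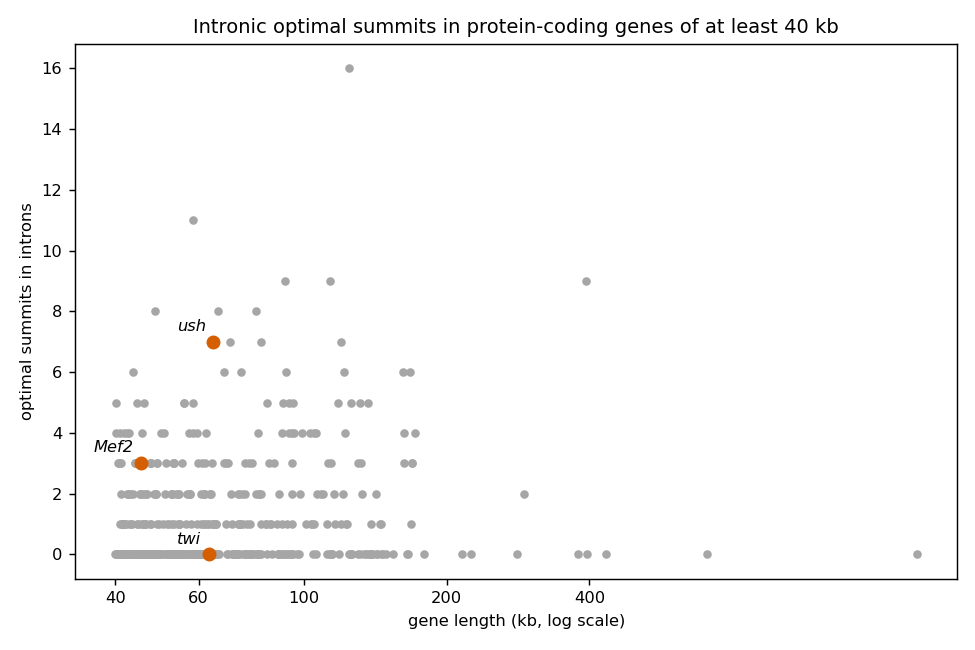
Number of optimal summits in introns (vertical axis) against gene length in kb (log scale) for the 461 protein-coding genes of at least 40 kb, 1 point a gene, with ush, Mef2 and twi in orange. At similar lengths ush has 7 summits and twi 0, and Mef2 has 3.

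Mef2 (FBgn0011656, chr2R:9913496-9958858, minus strand) had the strongest peak after ush, but it lay at the promoters of its neighbours. This peak (chr2R:9959724-9960088, signal 1524.4, rank 28) was 1039 bp upstream of the TSS of Mef2-RF and Mef2-RH, 165 bp upstream of the TSS of Pdrg1, and within 500 bp of that of Pal1. It ranked 31, 30 and 32 in replicates 1, 2 and 3, so it kept almost the same place in each list. Within the gene, 3 optimal peaks lay in the intron between the most upstream exon and the TSS of Mef2-RG (chr2R:9944765-9958123). The strongest (chr2R:9949117-9949303, signal 346.8, rank 944) ranked 1123, 730 and 1362 in the replicates. Its neighbour (chr2R:9949240-9949683, 184.5, rank 2577) overlapped it and had ranks of 2133 and 1851 in replicates 2 and 3, while replicate 1 had no peak over its summit. The third intronic peak (chr2R:9955341-9955784, 162.2, rank 3123) ranked 2941, 6446 and 3075. A peak in a 5′ UTR exon (chr2R:9942718-9943161, 183.2, rank 2606) lay 1824 bp downstream of the TSS of Mef2-RG and ranked 2849, 2178 and 11649. The weaker Mef2 peaks thus moved over more ranks between replicates than the peak at Pdrg1. Ranks lie closer together at low signal, so this does not compare their spread in signal.

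No optimal summit lay within 500 bp of any of the 3 Mef2 TSSs. The TSS used by 8 of its 11 annotated transcripts had its nearest optimal summit at -13325 bp, and its nearest pooled summit, at -425 bp, ranked 10657.

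tin (FBgn0004110, chr3R:21378977-21381970, plus strand) had 1 optimal peak, at its only annotated TSS. The peak (chr3R:21378664-21378792, signal 518.7, rank 444) had its summit 232 bp upstream. In the replicates it had signals of 129.2, 220 and 140.2 and ranks of 587, 532 and 463, with summits at -187, -235 and -287 bp. No other gene had a TSS within 500 bp of the pooled summit. Of the 8 genes, tin was the only one with a promoter peak among the 1618 strongest optimal peaks.

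bap (FBgn0004862, chr3R:21388880-21390449, plus strand) is the neighbour of tin, with 6909 bp between the genes, and had no optimal peak within 10 kb and no pooled peak at its promoter or in its introns. The tin promoter summit lay 10135 bp from bap, just outside that distance, and is the optimal peak nearest to bap. Of the 4 pooled peaks within 10 kb of bap, the strongest (chr3R:21393704-21394147) had a signal of 86.87 and rank 8196, 5046 bp downstream of the TSS. Its replicate ranks were 21371, 7153 and 11643. The neighbouring NK genes thus had a peak of rank 444 at one promoter and no summit of any list within 500 bp of the other TSS.

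bin (FBgn0045759, chr3L:6990622-6994447, plus strand) had a strong peak upstream but none in the optimal set at its TSS. The summit of this peak (chr3L:6989105-6989548, signal 728.4, rank 222) lay 1295 bp upstream of bin, outside the promoter window, and the nearest TSS was that of bin. It ranked 222, 205 and 301 in the replicates, where the summits were within 10 bp of the pooled one. The other bin peak (chr3L:6981648-6982091, 166.5, rank 3014) lay 8752 bp upstream, 167 bp upstream of lncRNA:CR46000, and ranked 3427, 3800 and 3676. It was the only one of the 20 that was outside the 3237 strongest in every replicate.

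htl (FBgn0010389, chr3R:18045216-18052984, minus strand) had 1 optimal peak, which was weak. Its summit (chr3R:18049483-18049926, signal 210.5, rank 2097) lay 339 bp upstream of the TSS of htl-RA and htl-RC and, at the same time, in an intron of htl-RB. The replicates gave signals of 59.8, 96.19 and 52.99 and ranks of 2176, 2219 and 2890. At the other TSS, that of htl-RB, the nearest pooled summit ranked 16641 and lay 882 bp downstream, and replicate 3 had a summit of rank 15336 at -32 bp.

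Neither pnr nor twi had an optimal peak within 10 kb. pnr (FBgn0003117, chr3R:16026079-16041796, plus strand) had 7 pooled peaks within 10 kb, the strongest of them (chr3R:16029407-16029850, signal 72.1, rank 11536) in an intron 3377 bp from a TSS, with replicate ranks of 21827, 18767 and 16979. Pooled summits did lie at -81 bp from the TSS of pnr-RD and at -54 bp from that of pnr-RB, at ranks 23859 and 26074. In replicate 3 the summit at -70 bp from the pnr-RD TSS was stronger, with rank 4704, in replicate 1 a summit 86 bp downstream ranked 12205, and replicate 2 had no summit within 500 bp of a pnr TSS. The nearest optimal peak was 19971 bp away, nearest to lncRNA:CR42839. twi (FBgn0003900, chr2R:22985374-23048325, plus strand) had 17 pooled peaks within 10 kb. The strongest (chr2R:22976466-22976909, signal 115.4, rank 5168) lay at -8686 bp from the twi-RC TSS and ranked 8287, 4992 and 10663. The TSS nearest to it was that of CG32834, 7605 bp away. The long span of twi rests on twi-RC, which starts at 22985374, while twi-RA and twi-RB start at 23046108 and 23046322. No list had a summit within 500 bp of any of the 3 twi TSSs, and the nearest optimal peak lay 16115 bp beyond the gene, 180 bp from the TSS of CG9890. Over all peaks within 10 kb, the best ranks in replicates 1, 2 and 3 were 10699, 7153 and 5224 for bap, 9112, 9010 and 4704 for pnr, and 6613, 4992 and 8476 for twi. Some of these peaks lay at neighbouring genes. The bap rank of 5224 is a summit inside tin, 563 bp downstream of the tin TSS. The pnr ranks of 9112 and 9010 lay beyond the gene, 23177 and 23450 bp from its most upstream TSS. The pooled summit matched to rank 9010 was 98 bp from the TSSs of IKKbeta and lncRNA:CR45212. The order of these best ranks differed between replicates, but it does not order the genes by peaks of their own.

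Most of the 20 peaks were found in each replicate. The optimal set rests on the authors' threshold on repeatability and equals the 3237 strongest peaks of the pooled replicates, so this is in part built in. A peak covered the pooled summit in all replicates for 19 of 20 (95%), against 96.1% of the optimal set, and 15 of 20 (75%) were among the 3237 strongest of every replicate, against 60.4%. The 20 peaks also had a higher median signal (336.3 against 247.5), and the part of signal in these shares was not tested. When each replicate was limited to its own 3237 strongest peaks, 22, 20 and 23 summits lay within 10 kb of the 8 genes in replicates 1, 2 and 3, spread over 5 genes each time. For promoters the counts were 3, 2 and 4 summits at 3, 2 and 3 genes. The threshold of the optimal set falls between peaks of similar strength here. Its weakest members were the Mef2 peak of rank 3123 and the bin peak of rank 3014, and the first peaks outside it lay by ush at ranks 3328, 3377 and 3530, with signals of 154, 152.4 and 147.2.

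**Figure D4:**
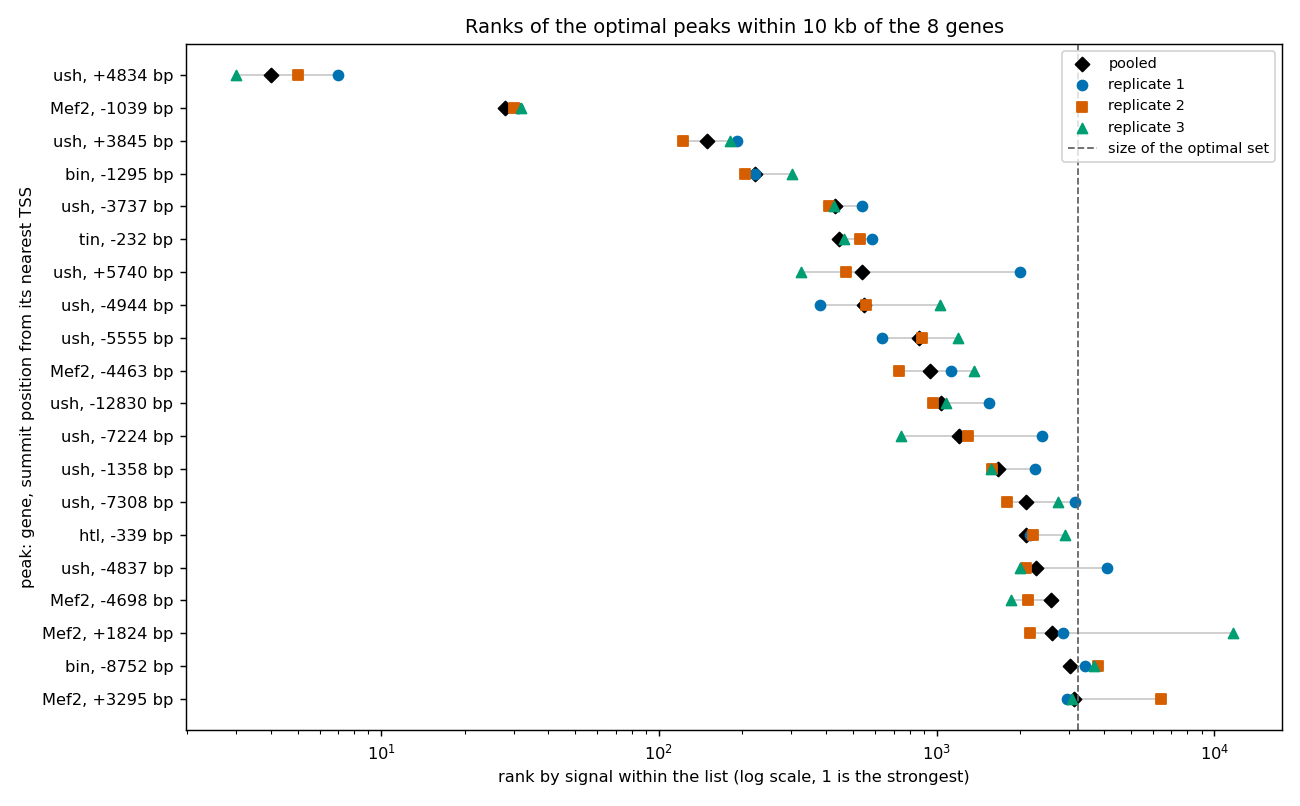
Rank by signal (log scale) of each of the 20 optimal peaks in the pooled list and in each replicate. Rows give the gene and the summit's position from the nearest TSS of that gene, and the dashed line marks rank 3237. The Mef2 peak at -1039 bp has ranks of 28 to 32, while the Mef2 peak at +1824 bp goes from 2178 to 11649.

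The sequence at these summits was searched for motifs on both strands, within 100 bp of the summit, with overlapping matches allowed. GAGAG, the GAGA factor motif, was in 6 of the 20 windows, beside 22.7% of all 3237 optimal windows and 27.5% of windows centred 500 bp to the left of the same summits on the plus strand. The shares in brackets that follow are in this order, optimal windows and then shifted windows. The window of the ush peak of rank 1040, shown above with its CT repeats, held 10 of these matches. Motifs of the mesoderm factors themselves were each in 1 to 3 of the 20 windows. The GATA motif GATAAG was in 1 of 20 (12.1% and 10.4%), and that window is the ush peak of rank 548. The Tinman-class motif TCAAGTG was in 1 (3.92% and 3.8%), the peak upstream of bin. The Twist-type E-box CATATG was in 2 (8.84% and 7.23%), the tin promoter peak and the ush peak of rank 1670. The MEF2 consensus was in 3 (12.6% and 5.44%), including the peak upstream of bin, and the forkhead motif TGTTTAC in 1 (8.34% and 4.57%), a Mef2 intronic peak. The repeat GTGTGTG was in 3 (6.49% and 11.4%), and the promoter element TATCGATA was in none (1.82% and 0.494%). With 20 windows, counts this low are a description only. The shifted windows were not matched for base composition, which is given further on, and its part in the bracketed shares was not tested. The strongest peak, that in ush, held none of these motifs.

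Windows were richer in A and T than their surroundings, as in the optimal set at large. The GC share of the 20 windows had a median of 36.8% (24.4% to 49.8%), against a median of 41.9% in the windows centred 500 bp to either side, and it was below that of its own flanks in 15 of 20 (75%). Over all optimal peaks the medians were 34.3% and 42.8%, and 77.9% were below their flanks. The lowest share was at the bin peak of rank 222 (24.4%, flanks 44.8%), then the tin promoter (28.9%, flanks 41.8%). The 7-mer with the largest excess at optimal summits, TTTAAAA, found after the peaks had been seen, was in 23.2% of optimal windows and 8.65% of the shifted windows. It was in 4 of the 20 windows, among them those of htl, bin and the cbt promoter. The part of base composition in its excess was not tested.

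Among 52 other genes listed for mesoderm and heart development, optimal promoter peaks were about as frequent as among protein-coding genes at large. They were found at 5 of 52 (9.62%), beside the 10.8% given above. By listed role, the counts were 1 of 11 early mesoderm and fibroblast growth factor genes and 0 of 14 genes listed under cardiac specification. That role was given broadly, and takes in srp, GATAe and grn. The other counts were 1 of 11 genes of the Dpp and Wg signals, 1 of 5 visceral mesoderm genes and 2 of 11 somatic muscle genes. The strongest was at org-1, a T-box gene (chrX:8455311-8455531, signal 517.8, rank 447), at -365 bp from the TSS, with replicate ranks of 446, 490 and 435. Next came Poxm, a Pax gene of somatic muscle (chr3R:8334014-8334457, 486, rank 500), and shn, the zinc-finger cofactor of Dpp signalling (chr2R:11173397-11173840, 409.8, rank 704). The peak of stumps, the adaptor that acts downstream of Heartless (chr3R:14591025-14591468, 241.1, rank 1689), lay at -373 bp from a TSS. The weakest was at mbc, a myoblast fusion gene (chr3R:23781371-23781814, 195.9, rank 2349), where the nearest TSS was that of Nup98-96, and its rank in replicate 3 was 10683.

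More of these genes had peaks away from the promoter. Introns held an optimal summit in 15 of 52 (28.8%), with 11 summits in shn and 9 in kirre, a gene of muscle founder cells (these 2 were picked after their values were seen), and 36 (69.2%) had a summit within 10 kb. These shares are above the 7.75% and 46.2% of protein-coding genes, but the genes are also longer, with a median length of 13 kb against 2.17 kb, and the part of length in this was not tested. Listed genes that lie close together can also count the same peak, as srp and GATAe do, so the 36 genes do not stand for separate peaks.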

How the data were processed

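Chromatin immunoprecipitation was measured in 3 replicates of 1 group. Per the labels, chromatin was sonicated to 200 to 800 bp. Per the deposited notes, the authors called each replicate list and the pooled list against a separate control alignment (not analysed here) on assembly dm6, and kept in the optimal set what passed an irreproducible discovery rate threshold. The threshold's value, aligner and peak caller are not stated in the labels or files used here. Each deposited signal value (column 7) ranks peaks within a list. The deposited −log10 q-value (column 9) ordered ties only. The optimal peaks are the 3237 strongest pooled peaks.

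Genes and TSSs came from Ensembl release 115 (same coordinates as dm6) without transposable elements, and sequence from RefSeq Release 6. For 2 optimal peaks whose summit offset lay outside the peak, the midpoint was used. A replicate's peak was matched if it covered the pooled summit. An intronic summit lay in the gene and outside all of its exons. The 52 other genes and 8 motifs were listed by role. The text names all members, all optimal peaks within 10 kb, the strongest pooled peak where there was none, and listed genes with a promoter peak. Members, lists and motifs were chosen with earlier results of these data known. There is 1 group, so no test was made, and shares of protein-coding genes stand beside counts. The code, in Python 3.11.15, was checked on planted peaks. Alternatives were other windows and distances, the 1618 strongest optimal peaks, each replicate left out, and other lists or TSSs.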

Additional observations from a re-analysis of the deposited data

How the results depend on the processing

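Results are counts of few genes and peaks. With a 250 bp window, 1 member (tin) and 2 of the 52 other genes had an optimal promoter peak, in place of 2 and 5. Among the 1618 strongest optimal peaks the counts were 1 and 3, and 12 in place of 20 peaks lay within 10 kb of a member. Leaving out 1 replicate at a time and keeping optimal peaks among the 3237 strongest of both others gave 3 to 4 of the other genes a promoter peak, lowest without replicate 2. Within 20 kb of the gene body, all 8 members had an optimal peak, in place of 5 within 10 kb. The share of all protein-coding genes within 20 kb was not computed, so that count has no share beside it. For bap, pnr and twi, the TSSs nearest to those peaks were those of tin, lncRNA:CR42839 and CG9890. The intronic ush peak ranked 7 in replicate 1, in place of 4, and its summit in replicate 3 lay 1396 bp from the cbt TSS, in place of 1366. The gene of the nearest TSS was cbt in every list. In the settings not given here, counts stayed within 1.5 times the reported ones. The causes of these shifts were not tested. No paired analysis was possible because there is 1 group. Unknown depth means that a gene without a peak cannot be read as unbound.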
